A study of Mus musculus with 16 samples.

Results

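The immunity-related GTPases (IRG proteins) are large GTP-binding proteins that mouse cells make in response to interferons, above all interferon-gamma. The 7 genes described here are Iigp1, Igtp, Irgm1, Irgm2, Tgtp1, Tgtp2 and Ifi47, out of 53764 genes in the count table of a mouse heart study. They were picked by family and because 3 of them passed the threshold for the drug on control diet, so their values in that comparison are a description and not a test. All 7 passed the filter on low counts, which left 15841 genes.

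The RNA came from the left ventricle of male C57BL/6J mice that had eaten their assigned diet from 8 weeks of age for 4 months. The 4 groups were a high fat, high sucrose diet (HFHS) with ertugliflozin, HFHS untreated, a low fat control diet (CD) with ertugliflozin, and CD untreated. Ertugliflozin, an inhibitor of the kidney glucose transporter SGLT2, was mixed into the diet at 0.5 mg/g, and food was freely available. Each group had 4 libraries, from animals that the submitters chose as representative of a larger group, so the spread given here is the spread among chosen animals.

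In mice, IRG proteins gather on the vacuoles of intracellular parasites and bacteria and break them open. The effector proteins, here Iigp1 (Irga6), Tgtp1 and Tgtp2 (Irgb6) and Ifi47 (Irgd), load onto the foreign membrane. The regulators Irgm1, Irgm2 and Igtp (Irgm3) sit on the cell's own membranes and hold the effectors inactive there, and correct loading also needs the proteins that attach ubiquitin-like tags in autophagy. Their genes are switched on by interferon-activated transcription factors at GAS elements and at interferon-stimulated response elements (ISRE). Iigp1 (ENSMUSG00000054072) lies on chromosome 18.

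The other 6 genes lie on the plus or minus strand of chromosome 11 (GRCm38, GENCODE M21 annotation). Irgm1 (ENSMUSG00000046879, 48861968 to 48871683, minus strand), Tgtp1 (ENSMUSG00000078922, 48985327 to 48994172, minus), Tgtp2 (ENSMUSG00000078921, 49057194 to 49064206, minus) and Ifi47 (ENSMUSG00000078920, 49076587 to 49096974, plus) form 1 cluster. Igtp (ENSMUSG00000078853, 58199556 to 58207591, plus) and Irgm2 (ENSMUSG00000069874, 58199618 to 58222782, plus) overlap in another, where 162 exon bases belong to both. Of all 50-base windows of Tgtp1 exon sequence, 79.4% also occur in Tgtp2, and 85.8% of Tgtp2 windows occur in Tgtp1. How the authors' counting divided reads between these copies is not given in the sources used here, so Tgtp1 and Tgtp2 are also given as a sum.

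The promoters are shown because the members moved together and because the letters known for interferon control stand in the same arrangement in 4 of them. RefSeq (GRCm38.p6) gave a promoter window of 250 bases before and 50 after the start for 6 of the 7 genes. The windows were searched on both strands for TTCNNNGAA (GAS) and for GAAA, NN and GAAA in a row (ISRE), where N is any base. GAS letters occur in 8.3% of 32851 RefSeq promoter windows, ISRE letters in 3.44%, and both in 0.454%. The 150 bases before the start follow, 5′ to 3′ on the gene's strand, with GAS and ISRE matches in capitals, for Igtp (chr11:58199406-58199555, plus), Irgm2 (chr11:58214827-58214976, plus), Tgtp1 (chr11:48992247-48992396, minus), Tgtp2 (chr11:49064213-49064362, minus) and Irgm1 (chr11:48871421-48871570, minus). The start is the RefSeq one: for Irgm2, Tgtp1 and Irgm1 it lies inside the GENCODE locus given above, and so does the window.
Igtp: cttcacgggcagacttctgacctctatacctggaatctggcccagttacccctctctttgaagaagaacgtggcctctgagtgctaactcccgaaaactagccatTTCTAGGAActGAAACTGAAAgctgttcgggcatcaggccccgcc
Irgm2: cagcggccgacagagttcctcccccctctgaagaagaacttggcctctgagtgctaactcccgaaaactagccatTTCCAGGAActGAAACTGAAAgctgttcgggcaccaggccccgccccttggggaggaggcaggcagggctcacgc
Tgtp1: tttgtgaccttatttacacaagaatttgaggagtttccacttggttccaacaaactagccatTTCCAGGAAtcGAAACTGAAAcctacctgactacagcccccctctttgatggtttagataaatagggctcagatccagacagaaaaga
Tgtp2: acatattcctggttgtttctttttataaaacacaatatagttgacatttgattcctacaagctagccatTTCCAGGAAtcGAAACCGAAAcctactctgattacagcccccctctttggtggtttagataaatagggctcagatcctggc
Irgm1: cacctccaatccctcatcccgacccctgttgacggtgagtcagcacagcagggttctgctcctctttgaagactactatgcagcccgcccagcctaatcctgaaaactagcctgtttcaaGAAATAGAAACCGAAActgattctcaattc

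Igtp, Irgm2, Tgtp1 and Tgtp2 each held a GAS match, then 2 bases, then an ISRE match. Written as 1 string of letters, which was put together after these sequences had been seen, that arrangement occurred in 5 of 32851 windows (0.0152%). The fifth was that of Gm12185, a gene listed with the IRG family that shares 223 exon bases with Tgtp1. These windows belong to related genes and are not independent occurrences. Igtp and Irgm2 have nearly the same letters around the match, and Tgtp1 and Tgtp2 are near-copies. Irgm1 held a pair of overlapping ISRE matches and no GAS match in the 300-base window. Ifi47 held neither set of letters in its window. A match of letters is a description of the sequence and not evidence that a factor bound there.

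Before the results, the libraries were checked against their tissue. The 12 ventricular cardiomyocyte markers summed to between 107000 and 130000 CPM (read counts scaled to a common library size with TMM factors) in every library. CD untreated libraries stood apart in markers of neighbouring tissue. Valve and cartilage markers summed to 25.8 to 78.7 CPM in the 12 libraries of the other groups, against 264 and 217 CPM in CD untreated replicates 2 and 3, and atrial markers reached 1280 CPM in CD untreated replicate 1. Values of the comparisons that use CD untreated are therefore also given without replicates 2 and 3 for some members, of which Tgtp2 and Ifi47 moved and Iigp1 did not. Replicate 1 stays in that check, with its atrial markers and with 98.5 CPM of valve and cartilage markers. Totals were 14637669 to 21452212 counts per library, and the members' summed counts were 0.00956% to 0.0274% of a library.

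**Figure D1:**
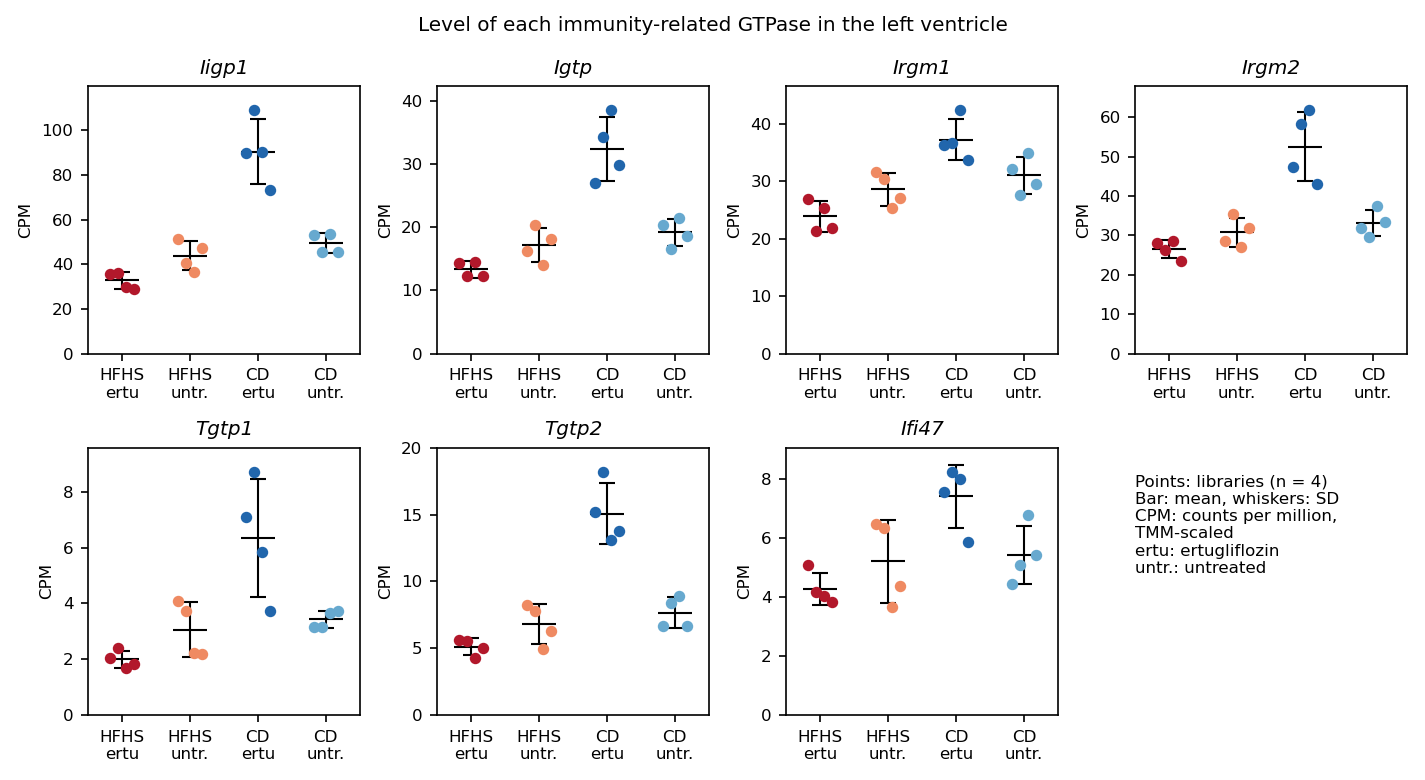
Each panel plots 1 gene's level in CPM (linear axis from 0) for the 4 groups, with points for the 4 libraries of each group and a bar for the mean ± SD. CD ertugliflozin has the highest mean for every gene, and Iigp1 averages 32.8 CPM in HFHS ertugliflozin against 90.5 CPM in CD ertugliflozin.

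Among the regulators, Igtp had 14.4, 12.2, 14.5 and 12.2 CPM in HFHS ertugliflozin, 16.3, 20.4, 14 and 18.1 CPM in HFHS untreated, 27, 34.3, 38.5 and 29.9 CPM in CD ertugliflozin, and 20.3, 16.5, 21.4 and 18.6 CPM in CD untreated. The 4 CD ertugliflozin libraries were above all others, and the 2 HFHS groups overlapped in the range of their libraries. Irgm2 had 28, 26.3, 28.6 and 23.4 CPM in HFHS ertugliflozin, 28.7, 35.5, 27 and 31.9 CPM in HFHS untreated, 47.3, 58.2, 61.8 and 43.1 CPM in CD ertugliflozin, and 32, 29.6, 37.6 and 33.3 CPM in CD untreated. CD ertugliflozin was again above every other library, and the HFHS groups again overlapped. Irgm1, whose loss in mice impairs resistance to mycobacteria, had the closest group means: it averaged 23.9 ± 2.69 CPM in HFHS ertugliflozin, 28.7 ± 2.89 in HFHS untreated, 37.3 ± 3.62 in CD ertugliflozin and 31 ± 3.21 in CD untreated (SD, n = 4 each). Irgm1 libraries of CD ertugliflozin and CD untreated overlapped.

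Among the effectors, Iigp1 had 35.8, 36.1, 30 and 29.1 CPM in HFHS ertugliflozin, 51.3, 40.7, 36.6 and 47.1 CPM in HFHS untreated, 89.7, 109, 90.1 and 73.1 CPM in CD ertugliflozin, and 53.3, 45.5, 53.7 and 45.6 CPM in CD untreated. It was the only member whose HFHS ertugliflozin libraries all lay below the HFHS untreated libraries. Tgtp2 had 5.63, 5.56, 4.27 and 5.04 CPM in HFHS ertugliflozin, 8.23, 7.78, 4.91 and 6.29 CPM in HFHS untreated, 15.2, 18.2, 13.1 and 13.8 CPM in CD ertugliflozin, and 6.65, 8.39, 8.94 and 6.69 CPM in CD untreated. CD ertugliflozin was again apart, and of the HFHS untreated libraries only replicate 3 lay within the range of HFHS ertugliflozin. The near-copy Tgtp1 averaged 2 ± 0.321 CPM in HFHS ertugliflozin, 3.06 ± 0.99 in HFHS untreated, 6.35 ± 2.1 in CD ertugliflozin and 3.43 ± 0.305 in CD untreated (SD, n = 4 each). Tgtp1 was read at 28 to 161 counts per library and Tgtp2 at 70 to 336. Tgtp2 took 64.2% to 78.7% of the counts of the pair in each library, and their sum averaged 7.12 ± 0.908 CPM in HFHS ertugliflozin, 9.86 ± 2.45 in HFHS untreated, 21.4 ± 4.17 in CD ertugliflozin and 11.1 ± 1.22 in CD untreated (SD, n = 4 each). Ifi47 averaged 4.27 ± 0.55 CPM in HFHS ertugliflozin, 5.2 ± 1.42 in HFHS untreated, 7.41 ± 1.07 in CD ertugliflozin and 5.42 ± 0.982 in CD untreated (SD, n = 4 each). Its libraries overlapped in every pair of groups except HFHS ertugliflozin and CD ertugliflozin.

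Compared per length of exon sequence, Igtp, Irgm2 and Iigp1 had the highest levels in each group. In CD ertugliflozin the levels were 16 ± 2.48 CPM per kb for Igtp, 15.5 ± 2.51 for Iigp1 and 14.2 ± 2.4 for Irgm2, which do not differ beyond their spread. Irgm1 followed at 6.42 ± 0.623 CPM per kb, then Tgtp2 at 5.13 ± 0.767, Ifi47 at 3 ± 0.432 and Tgtp1 at 1.98 ± 0.656. In CD untreated the same genes led, Igtp at 9.49 ± 1.06, Irgm2 at 8.97 ± 0.911 and Iigp1 at 8.51 ± 0.789 CPM per kb, again within their spread. Tgtp2 (2.61 ± 0.399 CPM per kb) and Ifi47 (2.19 ± 0.397) did not differ beyond their spread there. In HFHS ertugliflozin Irgm2 headed the order at 7.21 ± 0.637 CPM per kb, with Igtp at 6.6 ± 0.642 and Iigp1 at 5.63 ± 0.636 after it. In HFHS untreated Igtp had 8.51 ± 1.34 CPM per kb, Irgm2 8.34 ± 1.03 and Iigp1 7.54 ± 1.12, within their spread. Tgtp1 was lowest in every group, with the reservation that reads shared with Tgtp2 can be placed on either gene.

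The effect of ertugliflozin on HFHS hearts was the drug comparison whose group means had no part in choosing the genes. Its libraries did enter the estimate of each gene's spread, which all groups share in the 1 fit. All 7 members were lower in HFHS ertugliflozin than in HFHS untreated in their means, and none passed the threshold of edgeR's quasi-likelihood test (Benjamini-Hochberg adjusted p under 0.05 over 15841 genes). That is 0 of 7 members, beside 0% of all genes tested. The log2 fold change was -0.42 ± 0.13 for Iigp1 (unadjusted p = 0.00427 by edgeR), -0.37 ± 0.13 for Igtp (0.0089) and -0.26 ± 0.1 for Irgm1 (0.0136), each ± SE and each with an adjusted p of 1. The other members, also at an adjusted p of 1, had -0.41 ± 0.16 for Tgtp2 (unadjusted p = 0.0194 by edgeR), -0.62 ± 0.26 for Tgtp1 (0.0286), -0.29 ± 0.18 for Ifi47 (0.13) and -0.21 ± 0.12 for Irgm2 (0.0844). Over all 15841 genes the median was 0.00051, and 637 genes had an unadjusted p under 0.05 by edgeR. DESeq2 and limma on the deposited log2 values also called 0 genes. Libraries of the HFHS groups did not overlap for 1 of 7 members, Iigp1, where 1.54% of all genes were lower without overlap.

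The effect of diet, averaged over both drug arms, was the other comparison tested. It shares the CD libraries with the drug comparison that chose the genes, but weights both CD groups equally. Both comparisons also use the same estimate of each gene's spread, so the test is not independent of the choice. The higher level in CD ertugliflozin raises the CD average, so this value carries part of the drug difference on CD. All 7 members fell on HFHS relative to CD in this average by edgeR's test, where 11.6% of all genes passed and 5.01% passed as lower. The calls are for the average and not for diet in either drug arm. Without drug, the members' log2 fold changes on HFHS against CD lay between -0.17 and -0.06. Another 6.59% passed as higher. The regulators fell by 0.72 ± 0.09 on the log2 scale for Igtp (adjusted p = 5.51e-05 by edgeR), by 0.54 ± 0.08 for Irgm2 (0.000452) and by 0.38 ± 0.07 for Irgm1 (0.00132). The effector Iigp1 fell by 0.82 ± 0.09, to 0.567 of its CD level (adjusted p = 3.88e-05 by edgeR). Tgtp2 fell by 0.86 ± 0.11 (6.02e-05), Tgtp1 by 0.91 ± 0.17 (0.00227) and their sum by 0.88 ± 0.12 (0.000162). Ifi47 fell by 0.42 ± 0.12, with an adjusted p of 0.0323 by edgeR. Its call ended when any of 8 single libraries was left out (adjusted p 0.0589 to 0.0753): HFHS ertugliflozin replicates 2, 3 and 4, HFHS untreated replicates 3 and 4, CD ertugliflozin replicates 2 and 3, or CD untreated replicate 3. Without CD untreated replicates 2 and 3 together, Iigp1 had a log2 fold change of -0.82, Tgtp2 one of -0.76 and Ifi47 one of -0.35, and Ifi47 alone of the 7 no longer passed (adjusted p = 0.124 by edgeR).

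The averaged diet effect combined unequal parts in the 2 drug arms. Without drug, HFHS untreated and CD untreated differed by a log2 fold change of -0.17 ± 0.12 for Iigp1, -0.15 ± 0.12 for Igtp, -0.17 ± 0.15 for Tgtp2 and -0.06 ± 0.18 for Ifi47, and libraries of the 2 groups overlapped for all 7 members, where 8.33% of all genes did not overlap. With drug, HFHS ertugliflozin lay below CD ertugliflozin by a log2 fold change of -1.46 ± 0.12 for Iigp1, -1.28 ± 0.12 for Igtp, -0.98 ± 0.11 for Irgm2, -1.55 ± 0.15 for Tgtp2 and -0.64 ± 0.09 for Irgm1. All 7 members were lower there with no overlap of libraries, where 6.38% of all genes were. Both arms contain the libraries of the drug comparison on CD, so these values are given without a test. HFHS ertugliflozin also lay below CD untreated without overlap for 6 of 7 members (5.64% of all genes lower without overlap), Ifi47 being the exception. The log2 fold change there was -0.59 ± 0.12 for Iigp1, -0.58 ± 0.16 for Tgtp2 and -0.34 ± 0.18 for Ifi47, and without CD untreated replicates 2 and 3 it was -0.59 for Iigp1, -0.38 for Tgtp2 and -0.2 for Ifi47. Without those replicates, the untreated diet values were 0.03 for Tgtp2 and 0.08 for Ifi47, so the sign of these small differences rests on those libraries. Ifi47 also had 0.08 without HFHS untreated replicate 3.

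**Figure D2:**
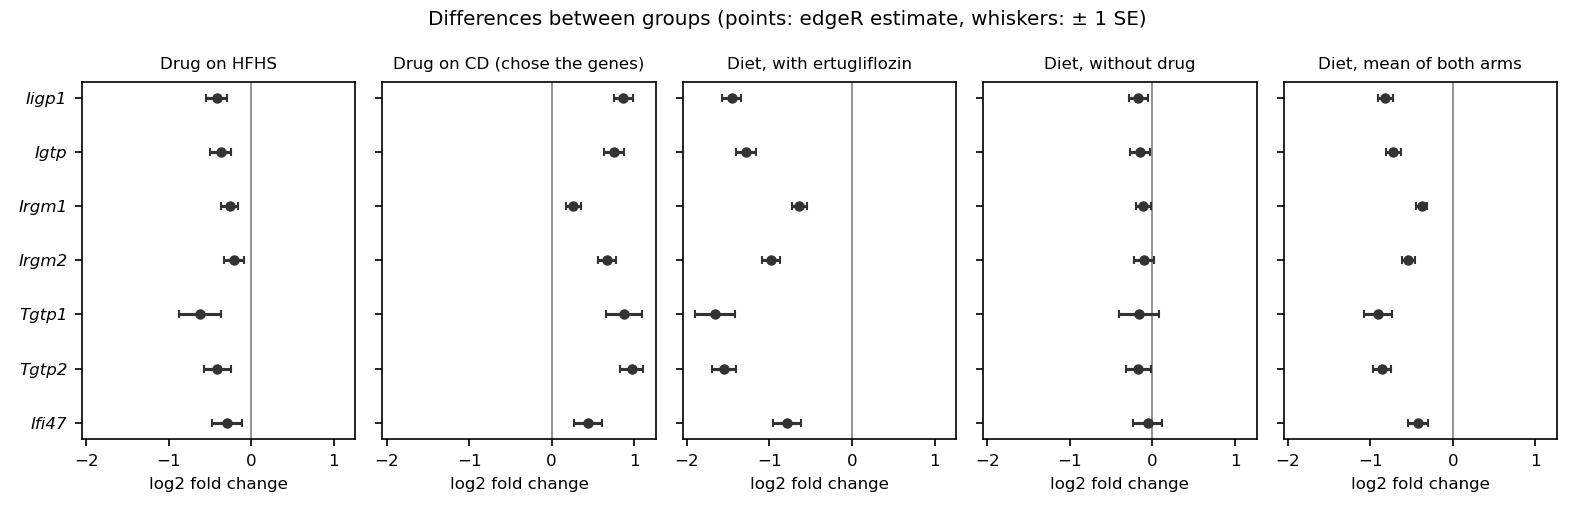
Points are edgeR log2 fold changes of the 7 genes in each comparison, with bars of ± 1 SE and 0 marking no difference. The drug effect on HFHS lies between -0.62 and -0.21, and the diet effect lies further below 0 with ertugliflozin than without it.

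The drug comparison on CD chose the genes and is described only. Ertugliflozin hearts on CD were higher than CD untreated hearts by a log2 fold change of 0.97 ± 0.14 for Tgtp2, 0.87 ± 0.12 for Iigp1 and 0.76 ± 0.12 for Igtp. These 3 of 7 were inside the threshold that the rule used, at edgeR adjusted p of 0.0203, 0.0203 and 0.0283. They were the only 3 of 15841 genes inside it (0.0189%), so that share is not a separate background. Irgm2 was just outside it at 0.67 ± 0.11 (adjusted p = 0.0693 by edgeR). Tgtp1 had 0.88 ± 0.22, Ifi47 0.44 ± 0.17 and Irgm1 0.26 ± 0.09. Libraries did not overlap for 5 of 7 members, Irgm1 and Ifi47 being the exceptions, where 1.78% of all genes were higher without overlap. Without CD untreated replicates 2 and 3 the log2 fold change was 1.17 for Tgtp2, 0.87 for Iigp1, 0.74 for Igtp and 0.58 for Ifi47. On the scale of the difference between the drug effects (HFHS minus CD), the values ran from -1.5 ± 0.34 for Tgtp1 to -0.53 ± 0.13 for Irgm1. Without CD untreated replicates 2 and 3 they ran from -1.58 for Tgtp2 to -0.54 for Irgm1. They were not tested because that difference contains the choosing comparison.

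The members varied together across libraries. The correlation of log2 CPM between members over the 16 libraries was 0.83 to 0.98, highest for Igtp with Irgm2, which share exon bases and group differences. After group means were subtracted, it ranged from 0.19 for Igtp with Tgtp1 to 0.88 for Igtp with Irgm2, and Tgtp1 with Tgtp2 had 0.71. The mean of the members' centred log2 CPM was -0.37, -0.47, -0.55 and -0.63 in HFHS ertugliflozin, 0.03, 0.03, -0.47 and -0.23 in HFHS untreated, 0.65, 0.88, 0.75 and 0.39 in CD ertugliflozin, and -0.06, -0.11, 0.18 and -0.04 in CD untreated. HFHS untreated replicate 3 lay among the HFHS ertugliflozin libraries on this measure.

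Of 14192 other genes with a mean of at least 1 CPM, 15 had a Pearson correlation over 0.9 with that mean across the 16 libraries. The 8 highest were Tap1 (0.97), a peptide transporter of antigen presentation, Nlrc5 (0.97), an activator of class I genes, H2-Q6 (0.96), H2-Q7 (0.96), Gbp4 (0.95), H2-K1 (0.94), Gbp7 (0.94) and H2-Q4 (0.93). Within groups the 5 highest were Far1 (0.88), Irf2 (0.88), Parp14 (0.87), Gbp3 (0.86) and Tap1 (0.86). H2-Q genes are near-copies of one another, and their counts may share reads.

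**Figure D3:**
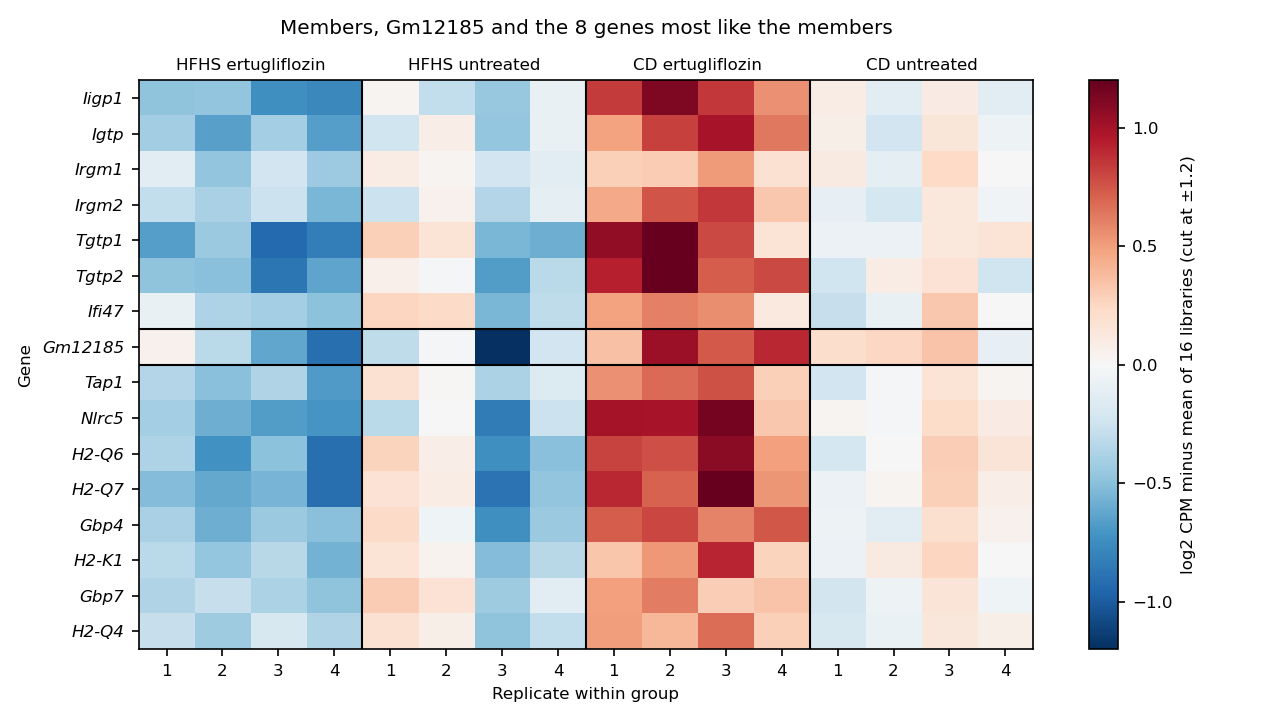
Rows are the 7 genes and the genes most like them, columns are the 16 libraries by group, and colour is log2 CPM minus the gene's mean, limited at ±1.2. CD ertugliflozin columns are the highest block, and the 7-gene mean there is 0.39 to 0.88.

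Other genes of the interferon-gamma pathway were followed as lists. Of 8 tested genes listed with the IRG family beyond the 7, 2 fell on HFHS in the averaged diet effect and 0 rose. Gm12185 fell by 0.94 ± 0.2 (adjusted p = 0.00482 by edgeR) and Gm4951 by 0.66 ± 0.17 (0.0133). Gm12250, for which RefSeq gives the synonym Irgb10, had -0.5 ± 0.2 (adjusted p = 0.106 by edgeR) and F830016B08Rik -0.46 ± 0.17 (0.102). The other 4 lay nearer to 0, at -0.23 for Gm5431, -0.04 for 9930111J21Rik1, 0.03 for 9930111J21Rik2 and 0.14 for Irgq. The list's median log2 fold change was -0.35, against -0.0076 over all genes, of which 5.01% passed as lower. By drug arm the median was -0.84 with ertugliflozin and 0.083 without drug.

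Guanylate-binding proteins, which act beside IRG proteins at pathogen vacuoles, fell for 6 of 9 tested genes on HFHS in the averaged diet effect, beside 5.01% of all genes, with a median of -0.42. The median was -0.86 with ertugliflozin and -0.097 without drug, where 3 of the 9 were higher on HFHS. Gbp5 fell by 0.42 ± 0.06 (adjusted p = 0.000334 by edgeR), Gbp4 by 0.71 ± 0.1 (0.000516), Gbp6 by 0.96 ± 0.15 (0.00101) and Gbp7 by 0.38 ± 0.09 (0.0108). Of 21 genes of class I antigen presentation and the immunoproteasome, 13 fell and 0 rose (5.01% of all genes fell), with a median of -0.25. Their median was -0.37 with ertugliflozin and -0.07 without drug. Among them Tap1 fell by 0.56 ± 0.09 (adjusted p = 0.000448 by edgeR), Psme1, a proteasome activator subunit, by 0.25 ± 0.04 (0.000459), H2-T22 by 0.51 ± 0.08 (0.000572) and H2-Q7 by 0.9 ± 0.14 (0.00102).

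Of 18 tested genes listed as interferon-gamma signalling and regulators, 6 fell and 0 rose on HFHS in the averaged diet effect. Beside them, 5.01% of all genes fell, and the list's median was -0.17. By arm the median was -0.25 with ertugliflozin and 0.0014 without drug, where 9 were higher and 9 lower. Nlrc5 fell by 0.95 ± 0.12 (adjusted p = 8.52e-05 by edgeR), averaging 5.61 ± 0.544 CPM in HFHS ertugliflozin, 6.77 ± 1.58 in HFHS untreated, 15.9 ± 3.62 in CD ertugliflozin and 9.02 ± 0.671 in CD untreated (SD, n = 4 each). Jak1, a kinase of the receptor complex, fell by 0.17 ± 0.05 (adjusted p = 0.0193 by edgeR) and Stat2 by 0.21 ± 0.06 (0.0211). The receptor genes Ifngr1 (0.03 ± 0.07) and Ifngr2 (-0.06 ± 0.04) did not pass. The ligand gene Ifng was read at 0 to 2 counts per library and 7 counts in all, too few to compare groups.

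Of 27 genes that answer mainly to type I interferon, 1 fell in the averaged diet effect, near the 5.01% of all genes that fell. It was Ifi35 (-0.26 ± 0.05, adjusted p = 0.00249 by edgeR), and the list's median was -0.16, with -0.41 in the ertugliflozin arm and 0.13 in the untreated arm. For ertugliflozin on HFHS all 27 had log2 fold changes below 0, with a median of -0.51, and 0 passed. Ifi44 (-0.82 ± 0.18) and Oas2 (-0.69 ± 0.15) had the smallest p there, with an adjusted p of 0.653 for both by edgeR. Of 15 genes of the autophagy conjugation machinery, which IRG loading needs, 1 fell on HFHS in the averaged diet effect, Gabarap (-0.23 ± 0.03, adjusted p = 0.000199 by edgeR), and the median was -0.012. That count is also near the share of all genes that fell. In the drug comparison on HFHS 0 genes of any of these lists passed. For the drug on CD, where the members were chosen, the medians were 0.48 for the other IRG genes, 0.38 for guanylate-binding proteins, 0.18 for class I genes, 0.071 for interferon-gamma signalling, 0.082 for type I genes and 0.036 for autophagy genes.

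**Figure D4:**
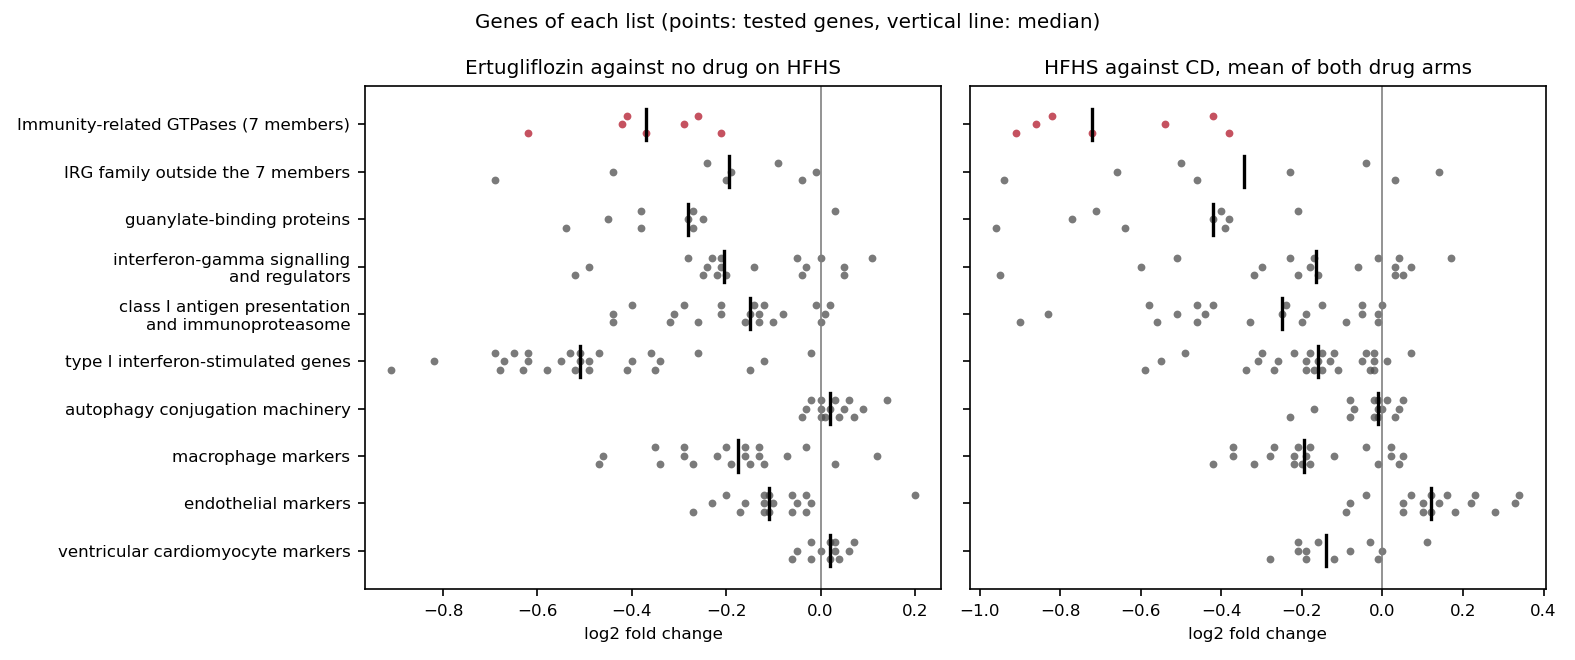
Points are log2 fold changes of single genes in each interferon or autophagy list, by comparison, with a bar at the list's median. In the averaged diet effect the medians are -0.42 for guanylate-binding proteins and -0.012 for autophagy genes.

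Markers of several cell types were also followed. In bulk tissue, fewer cells of a type and less RNA per cell cannot be told apart. Of 20 macrophage markers, 16 were lower and 2 fell on HFHS in the averaged diet effect, Aif1 (-0.42 ± 0.11, adjusted p = 0.0197 by edgeR) and Lyz2 (-0.37 ± 0.11, 0.037), beside 5.01% of all genes. Their summed level was 471 to 566 CPM in HFHS ertugliflozin, 528 to 612 in HFHS untreated, 543 to 774 in CD ertugliflozin and 523 to 706 in CD untreated. With a macrophage score as covariate, added after these values had been seen, 6 of 7 members passed in the averaged diet effect, where 1509 of 15841 genes passed, 679 of them as lower. The values were then -0.8 for Iigp1, -0.83 for Tgtp2 and -0.63 for Igtp, and Ifi47, at -0.33, did not pass (adjusted p = 0.141 by edgeR).

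T and NK cells are the main makers of interferon-gamma. Of 20 markers of these cells, 17 were below the filter and none was at 0 in all libraries. They summed to 3.93 to 5.16 CPM in HFHS ertugliflozin, 4.74 to 6.93 in HFHS untreated, 4.19 to 11 in CD ertugliflozin and 4.74 to 6.92 in CD untreated, and the 3 tested had 0 calls. Of 18 endothelial markers 3 rose on HFHS in the averaged diet effect, beside 6.59% of all genes. These were Kdr (0.34 ± 0.05), Cdh5 (0.28 ± 0.05) and Eng (0.18 ± 0.05). The summed level of the 18 was 2960 to 3470 CPM in HFHS ertugliflozin, 2980 to 3800 in HFHS untreated, 2760 to 3130 in CD ertugliflozin and 2610 to 3030 in CD untreated. Ventricular cardiomyocyte markers fell for 6 of 12 in the averaged diet effect, beside 5.01% of all genes, with a median of -0.14 and values of -0.28 to 0.11. The 12 summed to 112000 to 119000 CPM in HFHS ertugliflozin, 107000 to 122000 in HFHS untreated, 117000 to 130000 in CD ertugliflozin and 115000 to 126000 in CD untreated. The part of macrophages and of T, NK, endothelial and cardiac muscle cells in the members' values was not tested.

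For ertugliflozin on HFHS, where the 7 members and the 27 type I genes were all below 0, the lists of cell markers differed in direction. In none of these lists did a gene pass. Erythroid markers were lower for 6 of 6 tested genes, with a median of -0.41, and summed to 247 to 334 CPM in HFHS ertugliflozin and 314 to 490 CPM in HFHS untreated. Macrophage markers were lower for 18 of 20, with a median of -0.18, and endothelial markers for 17 of 18, with a median of -0.11. Valve and cartilage markers were higher for 10 of 10 tested genes (median 0.65) and ventricular cardiomyocyte markers for 7 of 12 (0.021). Fibroblast markers were higher for 6 of 12 (-0.0057). B cell and atrial markers were lower for 6 of 10 each (-0.15 and -0.18), and T and NK cell markers for 2 of 3 (-0.36). The part of any of these cells in the drug comparison was not tested. A macrophage score made of bulk marker levels cannot tell cell number from RNA per cell. With the macrophage score as covariate 0 members passed, but 0 had passed without it, so that count cannot show a change. The log2 fold change was then -0.4 for Iigp1 (-0.42 without the score), -0.28 for Igtp (-0.37) and -0.19 for Irgm1 (-0.26). It was -0.12 for Irgm2 (-0.21), -0.58 for Tgtp1 (-0.62), -0.37 for Tgtp2 (-0.41) and -0.18 for Ifi47 (-0.29).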

How the data were processed

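Poly(A) RNA of the left ventricle was sequenced in 16 directional libraries, 4 per group, per the labels' protocols. The deposited table holds raw read counts per Ensembl gene, made by the authors with STAR 2.6.0c and featureCounts from Subread 1.6.2 on mm10, per the submitters' processing notes, which also name FastQC 0.11.7 and DESeq2 1.22.1. Which annotation and strand setting were used, and whether reads with several matches were counted, is not given in the sources used here. A table of regularized log2 values, also deposited, was used as an alternative input only. The authors' counting of near-copies limits Tgtp1, Tgtp2, Igtp and Irgm2.

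GENCODE M21 gave a symbol to 53669 of 53764 IDs, and the other 95 took 0.00852% to 0.0106% of counts. Chi-square divided by its degrees of freedom was 3.19 to 15.8 between libraries of a group, above sampling noise. So none was the same library sequenced again, but the check cannot exclude libraries taken from the same animal. Analysis used R 4.3.3 and edgeR 4.0.16: filterByExpr on the 4 groups, TMM, 1 fit over 16 libraries with a mean per group, robust glmQLFit and glmQLFTest, with p adjusted by Benjamini-Hochberg across 15841 genes (10 had no symbol) and called under 0.05. The SE of a log2 fold change is its size divided by the square root of F. The common biological coefficient of variation was 0.0947. Alternatives used limma 3.58.1 and DESeq2 1.42.0, other scalings and filters, the replicate block, summed pairs, and each library left out. The script was tested on simulated data. P-values measure the spread among the chosen animals.

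The members, the lists and the tests were chosen with earlier results of these data known. Genes named beyond the members are the tested IRG family genes, up to 4 per list with the smallest p among those past the threshold (or 2 where none passed), and the genes most like the members' mean (8 over all libraries, 5 within groups). Gbp3 is named by the last part of this rule, and receptor, ligand and marker genes stand beside results as defining genes. 1 gene that the rule names is not reported here. Motif matches were found by exact letters. Further lists were B cell markers (0 of 10 called in either tested comparison), fibroblast markers (2 of 12 rose on HFHS in the averaged diet effect), ventricular cardiomyocyte markers (6 of 12 fell), atrial markers (0 of 10), valve and cartilage markers (1 of 10 fell) and erythroid markers (0 of 6). Of all genes, 6.59% rose and 5.01% fell in the averaged diet effect.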

Additional observations from a re-analysis of the deposited data

Results flagged for a closer look

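In all 7 genes every CD ertugliflozin library lay above the CD untreated mean. Every HFHS ertugliflozin library lay below the HFHS untreated mean, so the 2 estimated drug effects had opposite signs. On CD this is the comparison that chose the genes, and on HFHS no member passed. How many of all genes show the same pattern was not counted. The log2 fold change of ertugliflozin against no drug was -0.42 on HFHS and 0.87 on CD for Iigp1, -0.37 and 0.76 for Igtp, and -0.26 and 0.26 for Irgm1. It was -0.21 on HFHS and 0.67 on CD for Irgm2, -0.62 and 0.88 for Tgtp1, -0.41 and 0.97 for Tgtp2, and -0.29 and 0.44 for Ifi47. The difference between the diets was not tested, because it contains the comparison that chose the genes. In 28 sets of 4 libraries (7 genes in 4 groups), 0 had a library outside Dixon's 95% limit, which chance alone exceeds in about 5% of sets.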

How the results depend on the processing

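The 7 genes kept the direction of both tested comparisons under every alternative run, and no tested value reversed. For ertugliflozin on HFHS, 0 members passed under any alternative, and leaving out 1 library gave 0 to 1 genes called over the whole table (1 without CD ertugliflozin replicate 4). For the averaged diet effect, leaving out 1 library gave 1372 to 2532 genes called and 6 to 7 members. Iigp1 ranged from -0.86 to -0.52 and Tgtp1 from -1 to -0.25 over 25 alternatives, the smallest sizes coming from the deposited log2 values, and the largest adjusted p was 0.000464 for Iigp1 and 0.0121 for Tgtp1. Ifi47 was the member whose call was lost, under 10 of 25 alternatives, with adjusted p from 0.0144 to 0.141. Of 903 values given without a test, 24 moved by more than 1 SD, and the small diet differences without drug changed sign for Ifi47 and Tgtp2. Same-numbered libraries had correlations of -0.29 to 0.4 over pairs of groups, with means of -0.05 to 0.12 per number. These values show no clear pairing of animals by number but cannot exclude one. A replicate block gave 1796 genes and 7 members called for diet and 0 genes for the drug on HFHS. Tgtp1, read at 28 to 161 counts per library, has the lowest depth and the widest SE of the members. Fitting only the groups compared was not run for the averaged diet effect, which uses all groups.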
